A study of Homo sapiens with 24 samples.

Results

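The SR proteins are a family of splicing factors, and 10 of its genes, among the 18154 measured in this series, form the set described here: SRSF1, SRSF2, SRSF3, SRSF4, SRSF5, SRSF6, SRSF7, SRSF9, SRSF10 and SRSF11. They were taken by symbol, and all 10 had a value in all 24 libraries. SRSF8 and SRSF12, also of the family, had values in the knockdown and inhibitor experiments but are outside the set. The set was chosen with SRSF1 in view, as a gene at a much lower level after the MYC inhibitor KJ-PYR-9 than after its vehicle, so the members were chosen by their normalized counts in KJ-PYR-9 against VEH, and the levels under KJ-PYR-9 alone are a description and carry no test.

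Every library came from BT549, an established line of human breast cancer cells of the triple negative class with a mesenchymal shape, labelled wild type. The 3 experiments, each with its own controls and 3 libraries a group, were deposited as tables of normalized read counts. In the knockdown experiment, siMYC cells received a SMARTpool of siRNAs against MYC for 72 h and siCtl cells received control siRNA. In the inhibitor experiment, cells received vehicle (VEH), DEX, 40 µM KJ-PYR-9 for 3 h, or KJ-PYR-9 with DEX (KJ-PYR-9+DEX). The labels give neither a dose nor a time for DEX and do not spell out the name, and KJ-PYR-9 was dissolved in DMSO. In the third experiment, cells received vehicle (called VEH2 here) or 100 µM MB-3 in DMSO for 3 h (MB3). The title of the library MB3 1 names its treatment MED3, while its treatment label reads MB3. The labels call the libraries of a group biological replicates but do not say whether they came from separate cultures, so p-values measure the spread between these libraries alone.

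SR proteins carry RNA recognition motifs and a tail rich in arginine and serine. They bind exonic enhancers, recruit the U1 and U2 particles to nearby splice sites, and several also take part in mRNA export and translation. SRPK kinases phosphorylate the tail in the cytoplasm and transportin-SR (TNPO3) carries the protein into the nucleus, where CLK kinases phosphorylate it further. Many SR genes limit their own level by including a poison exon, which sends the transcript to nonsense-mediated decay. MYC, a transcription factor that binds E-box sequences with its partner MAX, is known to activate SRSF1, which acts as an oncogene in breast tissue. KJ-PYR-9 interferes with the MYC-MAX pair, and MB-3 inhibits the histone acetyltransferase KAT2A (GCN5).

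Because MYC binds E-boxes, the sequence before the start of each SR gene was searched on both strands for the palindrome CACGTG, the canonical E-box, and for CACGCG, which reads as CGCGTG on the other strand, a variant E-box. RefSeq promoters on GRCh38.p14 matched 9 of the 10 genes in 11 windows, SRSF2 being the gene without one, and the 250 bases before each start were used. CACGTG was in 0 of the 11 windows, against 6.34% of 35116 RefSeq promoters of this length. The variant was in 5 of the 11 windows, those of SRSF1, SRSF9 and SRSF10 and both overlapping windows of SRSF7, against 9.72% of promoters. Both SRSF7 windows hold the same site, and by gene the count was 4 of 9. The variant contains CpG, and the SR windows held 13 to 36 CpG against a median of 11 over all promoters; the part of CpG content in the count was not tested. Windows of SRSF1, SRSF9 and SRSF7 are shown because they hold the gene with the lowest level under KJ-PYR-9 relative to vehicle and the pair of genes with higher levels there. Each line reads 5′ to 3′ on the gene's own strand, the minus strand in all 3 cases, stops before the most upstream exon of RefSeq and GENCODE, and has the matches in capitals. The windows are chr17:58007347-58007496, chr12:120469794-120469998 and chr2:38751495-38751744.
SRSF1: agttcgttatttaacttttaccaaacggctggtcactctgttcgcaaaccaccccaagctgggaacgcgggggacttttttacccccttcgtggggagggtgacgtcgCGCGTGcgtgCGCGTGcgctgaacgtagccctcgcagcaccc
SRSF9: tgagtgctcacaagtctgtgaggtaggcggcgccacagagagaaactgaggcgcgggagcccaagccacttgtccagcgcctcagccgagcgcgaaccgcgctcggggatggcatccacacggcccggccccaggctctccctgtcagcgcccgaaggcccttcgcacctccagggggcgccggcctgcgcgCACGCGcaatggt
SRSF7: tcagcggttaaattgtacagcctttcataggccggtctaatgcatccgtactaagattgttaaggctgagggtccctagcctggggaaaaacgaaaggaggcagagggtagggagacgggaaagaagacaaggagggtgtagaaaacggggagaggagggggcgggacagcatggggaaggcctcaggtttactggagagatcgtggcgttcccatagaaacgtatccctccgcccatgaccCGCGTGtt
SRSF1 held 3 matches in its 250 bases, at 142, 132 and 88 bases before the RefSeq start, of which the first 2 lie in the stretch shown. SRSF9 held 1 match at 58 bases, SRSF7 1 at 8 bases, and SRSF10 1 at 166 bases. A match describes these letters only, since no binding was measured here.

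Depth, markers and the targeted genes were as follows. The reads recovered from the values, in units of M (1000000) per library, summed to 18.77 to 24.15 in the knockdown, 5.582 to 30.76 in the inhibitor experiment and 8.306 to 19.96 in the MB-3 experiment. The share of reads on features without a symbol was highest in the libraries DEX 1 (26.04%) and KJ-PYR-9+DEX 3 (8.72%) and ran from 1.62% to 5.44% in the remaining inhibitor libraries. All 5 mesenchymal markers (VIM, FN1, CDH2, SPARC, ZEB1) were present in every experiment. Their summed values were 27820 to 41150 in the inhibitor, 43090 to 68290 in the knockdown and 41270 to 47290 in the MB-3 libraries. Of the receptors ESR1, PGR and ERBB2, ESR1 was listed in no table. PGR was listed in the inhibitor table alone, with group means of 0 to 13.35. ERBB2 was listed in all 3 tables, with means of 836 in VEH, 1249 in siCtl, 1965 in siMYC and 823 in VEH2. Of 4 luminal markers, 3 were listed in the knockdown, and they were higher in siMYC: CDH1 ran from 269 to 522 in siMYC and from 61.0 to 110 in siCtl, KRT8 from 35.8 to 118 and from 14.8 to 20.7, and KRT18 from 27.7 to 61.2 and from 11.7 to 15.8. Mesenchymal markers FN1, SPARC and CDH2 were higher in siMYC too, without overlap. FN1 ran from 9750 to 16930 in siMYC and from 4089 to 6545 in siCtl. SPARC ran from 14580 to 20710 and from 8779 to 11480, and CDH2 from 5693 to 6619 and from 4860 to 4916. The groups overlapped for VIM and ZEB1. The part of these luminal and mesenchymal markers in the siMYC results was not tested. Of the leukocyte markers only PTPRC and CD14 were listed in the inhibitor table, with sums of 21.0 to 68.9. MYC was at 1718 ± 67.2 in siMYC against 2240 ± 91.2 in siCtl (SD, n = 3), a log2 change of -0.38 that did not pass limma's adjusted p (0.0587). In the inhibitor experiment MYC was at 1806 ± 598 in VEH, 18424 ± 1364 in DEX and 9853 ± 1408 in KJ-PYR-9. Adding DEX to the inhibitor gave 4160 ± 440. KAT2A was at 422 ± 64.8 in MB3 and 483 ± 59.2 in VEH2, with limma's adjusted p at 0.526. KJ-PYR-9 and MB-3 act on proteins, so these messages check no label.

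Under vehicle, the levels of the SR genes lay close together once divided by exon length. Per kilobase of exon, VEH libraries gave SRSF3 323 ± 52.5 normalized reads, SRSF2 307 ± 60.1, SRSF6 302 ± 36.7, SRSF7 256 ± 18.8, SRSF1 244 ± 31.9, SRSF9 239 ± 26.7, SRSF5 230 ± 21.4, SRSF4 198 ± 6.85, SRSF10 175 ± 14.3 and SRSF11 170 ± 20.1 (SD, n = 3). In that order, 6 of the 9 neighbouring pairs overlapped in their libraries, and only the steps from SRSF6 to SRSF7, from SRSF5 to SRSF4 and from SRSF4 to SRSF10 did not. The scale uses the union of GENCODE exons, so a gene with long rarely used exons reads low. In siCtl the order per kilobase began with SRSF2, SRSF1, SRSF6 and SRSF3, whose neighbours overlapped, and ended with SRSF9 at 409 ± 36.5. In VEH2 it began with SRSF2 at 624 ± 35.1 and ended with SRSF4 at 237 ± 10.5. Levels are not compared across the 3 tables, which were normalized separately.

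With KJ-PYR-9 alone, SRSF1 stood apart from the family. SRSF1, the founding SR protein, was at 836, 908 and 699 normalized reads in the 3 VEH libraries and at 193, 253 and 140 in the 3 KJ-PYR-9 libraries. Every treated library was below every vehicle library, and the means were 195 ± 56.2 against 814 ± 106 (SD, n = 3), a fitted fold of 0.236 or a log2 difference of -2.09. Only 27 genes of the 13616 in the fit had a lower log2 difference. SRSF2, a nuclear speckle protein, was at 874, 1127 and 775 in VEH and 605, 631 and 362 in KJ-PYR-9, again with no overlap and a log2 difference of -0.82. SRSF10, which represses splicing when it loses its phosphates, was at 1913, 1843 and 1630 in VEH and at 1271, 1277 and 1256 in KJ-PYR-9 (-0.50).

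**Figure D1:**
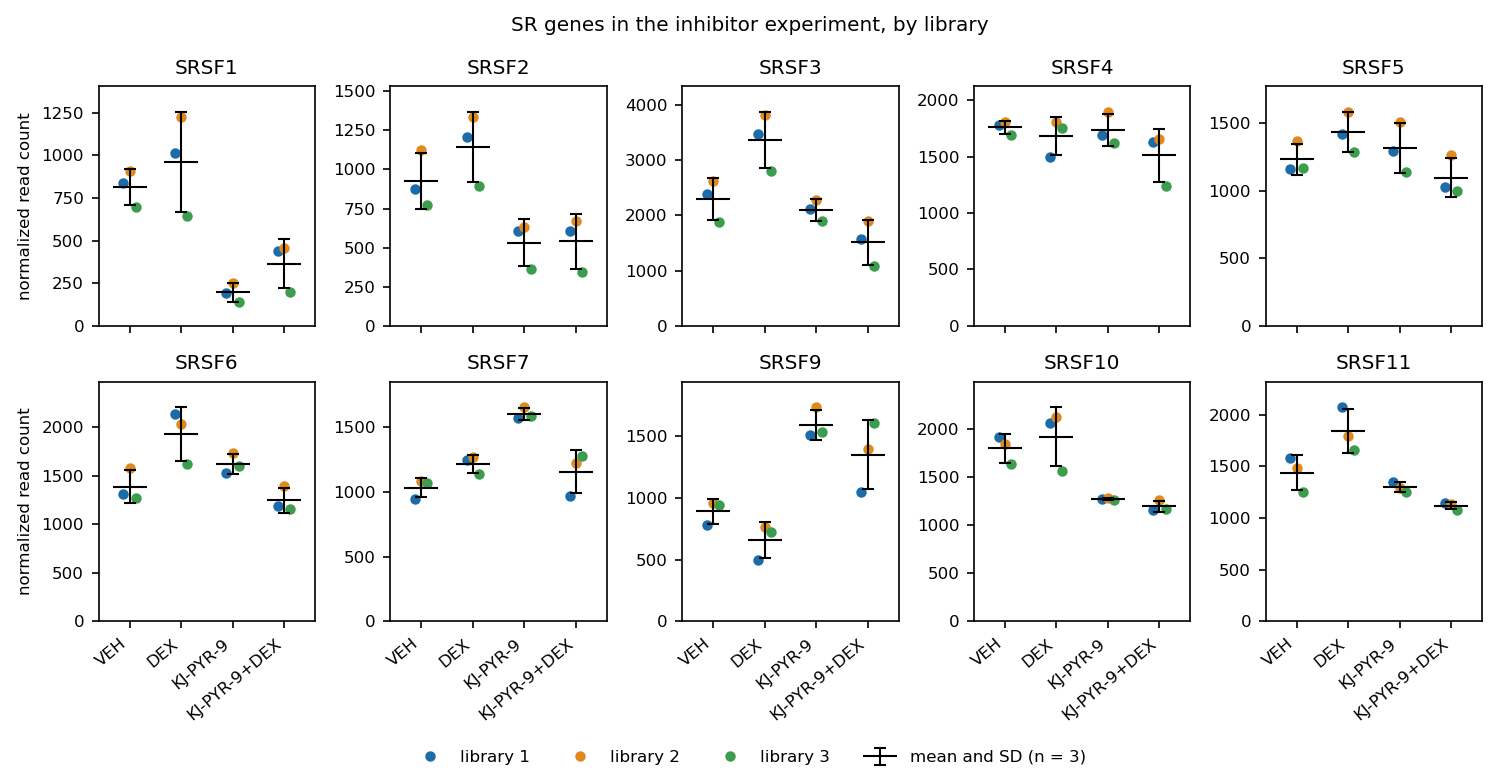
Normalized read counts (vertical axes, from 0) of the 10 SR genes in the 4 groups of the inhibitor experiment (horizontal axes). Points are libraries coloured by their number, and bars give the mean and SD (n = 3). SRSF1 lies between 140 and 253 in KJ-PYR-9 and between 699 and 908 in VEH, and SRSF9 lies above its VEH libraries in KJ-PYR-9.

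Levels of 2 other SR genes were higher in every KJ-PYR-9 library than in every VEH library. SRSF9, a small SR protein related to SRSF1, was at 778, 957 and 946 in VEH and at 1508, 1734 and 1535 in KJ-PYR-9, a fitted fold of 1.79 (log2 difference 0.84). SRSF7, which binds RNA with a zinc knuckle and helps to export mRNA, was at 948, 1085 and 1074 in VEH and at 1571, 1655 and 1586 in KJ-PYR-9 (0.63). The groups overlapped for SRSF3, SRSF4, SRSF5, SRSF6 and SRSF11, whose log2 differences ran from -0.14 for SRSF11 to 0.23 for SRSF6. In all, 3 SR genes were below and 2 above without overlap, beside 29.2% of all genes below and 35.4% above. The median log2 difference was -0.07 over the SR genes and 0.06 over all genes in the fit.

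The makeup of the family shifted accordingly. SRSF1 supplied 5.64% to 6.15% of the summed SR values in the VEH libraries and 1.13% to 1.77% in the KJ-PYR-9 libraries. Values of SRSF9 divided by those of SRSF1 were 0.931, 1.05 and 1.35 in the 3 VEH libraries and 7.81, 6.86 and 10.9 in the 3 KJ-PYR-9 libraries. Per kilobase, SRSF1 went from rank 5 in VEH to rank 10 in KJ-PYR-9, at 58.5 ± 16.8, while SRSF9 went from rank 6 to rank 1, at 425 ± 32.9. The summed SR values overlapped between the groups, at 12390 to 14770 in VEH and 12380 to 14270 in KJ-PYR-9. Scaled to the sum of the genes with a symbol in each library (CPM), they were 1027 to 1283 in VEH and 763 to 908 in KJ-PYR-9. The total of the family thus depends on the scale.

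Transcript composition moved with these changes across all genes of the inhibitor experiment. Genes were split into 4 classes of equal size by the GC content of their longest transcript, and the median log2 difference between KJ-PYR-9 and VEH went from -0.58 in the class lowest in GC through -0.14 and 0.28 to 0.70 in the highest. The 10 SR genes lie between 36.6% (SRSF11) and 45.6% GC (SRSF2), below the median of 48.4% of the genes in this fit, 8 of them in the lowest class and SRSF2 and SRSF9 in the second. After the trends of each library on GC content and length were removed, SRSF1 was still at a log2 difference of -1.69 and SRSF2 at -0.72, both without overlap. SRSF10 came to -0.02, and 7 SR genes, all but SRSF1, SRSF2 and SRSF10, lay above every vehicle library, beside 23.4% of all genes below and 24.5% above after this removal, with SRSF9 at 1.21 and SRSF7 at 1.03. The part that base composition plays in the library preparation was not tested.

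**Figure D2:**
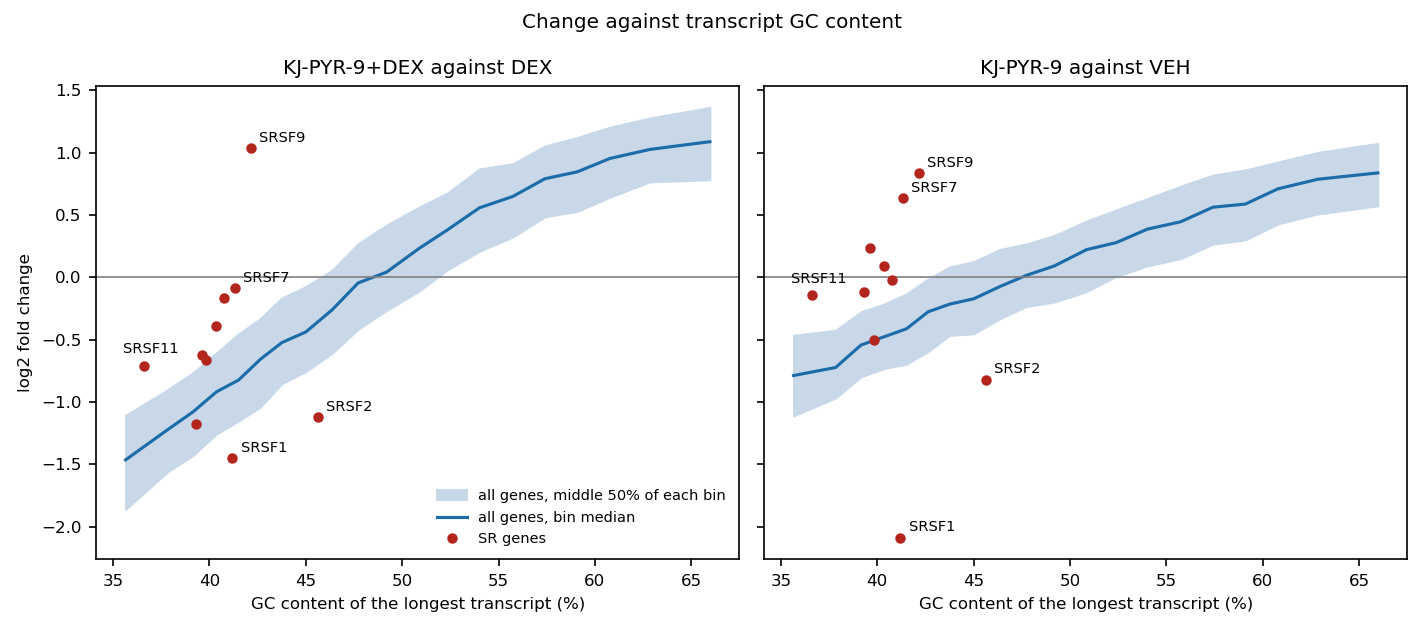
Log2 fold change (vertical axis) against the GC content of the longest transcript in percent (horizontal axis) for KJ-PYR-9+DEX against DEX (left) and KJ-PYR-9 against VEH (right). The line is the median and the band the middle 50% of all genes in 20 bins of equal gene number, and points are the SR genes. In both panels SRSF1 and SRSF2 lie below the band, and SRSF4, SRSF5, SRSF6, SRSF7, SRSF9 and SRSF11 lie above it.

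KJ-PYR-9 was also compared with its absence when DEX was present in both groups. The log2 changes came from libraries other than the VEH and KJ-PYR-9 libraries named in the choice of the genes. The SE and adjusted p did not, since the limma fit took its variance from all groups of the inhibitor experiment, VEH and KJ-PYR-9 included. The set was also drawn up with results of this comparison known, so the calls are no independent test of the set. In KJ-PYR-9+DEX against DEX, 7 of the 10 SR genes fell (SRSF1, SRSF2, SRSF3, SRSF5, SRSF6, SRSF10 and SRSF11), 1 rose (SRSF9) and 2 did not pass (SRSF4 and SRSF7), but removal of the GC and length trends left 1 SR gene lower and 6 higher, or 2 and 7 with the replicate number as a block as well. After that removal, 15.3% of all genes were called lower and 17.0% higher, or 21.3% and 21.5% with the block. As deposited, the same 7 genes were below every DEX library and SRSF9 above every one, beside 35.2% and 33.8% of all genes. Calls used limma's adjusted p with a threshold of 0.05, which 68.7% of the 13616 genes passed, 35.1% lower and 33.6% higher. The median log2 change was -0.65 over the SR genes and 0.00 over all genes, and after removal of the trends 0.49 and 0.01.

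SRSF1 was at 1013, 1229 and 646 in the 3 DEX libraries and at 441, 454 and 197 in the 3 KJ-PYR-9+DEX libraries. The groups did not overlap, and the fitted fold was 0.367, a log2 change of -1.45 (SE 0.34) and limma's adjusted p at 0.00348. Without DEX 1 and KJ-PYR-9+DEX 3, the libraries with the most reads on unnamed features, the change was -0.99 (limma adjusted p 0.0295), and with the GC and length trends removed it was -0.57 (0.0972, or 0.00734 with the replicate number as a block in that fit). With both steps together, the change was -0.32 (limma adjusted p 0.404). SRSF2 was at 1205, 1333 and 896 in DEX and at 606, 673 and 342 with KJ-PYR-9 added, a log2 change of -1.12 (SE 0.29, limma adjusted p 0.00579). With those 2 libraries left out, SRSF2 stood at -0.77 (limma adjusted p 0.0544), and with the trends removed at -0.74 (0.0442). With both steps it was at -0.48 (limma adjusted p 0.256). Over the 21 alternatives computed, SRSF1 lay between -1.71 and -0.32 with limma, edgeR or DESeq2 adjusted p from 2.32e-05 to 0.404.

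SRSF9 moved the opposite way. Its values were 494, 763 and 721 in DEX and 1051, 1397 and 1608 in KJ-PYR-9+DEX, a fitted fold of 2.05, with a log2 change of 1.04 (SE 0.20) and limma's adjusted p at 0.00104. This rise passed in all 21 alternatives, between 0.71 and 1.92, with the highest adjusted p at 0.0119.

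SRSF3, the smallest SR protein and an mRNA export adaptor, was at 3469, 3824 and 2811 in DEX and 1567, 1896 and 1081 in KJ-PYR-9+DEX, a log2 change of -1.18 (SE 0.21, limma adjusted p 0.00075). The groups were well apart for SRSF3, yet with the trends removed its change was -0.13 (limma adjusted p 0.418). SRSF11, an atypical member that contacts U2AF, was at 2071, 1796 and 1660 in DEX and 1147, 1138 and 1079 with KJ-PYR-9 added (-0.71, SE 0.13, limma adjusted p 0.000784). SRSF11 has the lowest GC content of the family, and its change turned to 0.64 (limma adjusted p 0.00779) with the trends removed. SRSF10, at 2056, 2124 and 1563 in DEX and 1157, 1264 and 1167 in the combination, gave -0.67 (SE 0.14, limma adjusted p 0.00152) and 0.33 (0.0629, or 0.0476 with the block) with the trends removed.

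The remaining SR genes had smaller log2 changes as deposited. SRSF6 was at 2132, 2032 and 1615 in DEX and at 1185, 1392 and 1156 in KJ-PYR-9+DEX, a log2 change of -0.62 (SE 0.15, limma adjusted p 0.00335) that turned to 0.38 (0.0417) with the trends removed. SRSF5 was at 1422, 1585 and 1289 against 1029, 1267 and 996, a change of -0.39 (SE 0.15, limma adjusted p 0.0405). Its call was lost when any one of the libraries DEX 1, DEX 2, KJ-PYR-9+DEX 1 and KJ-PYR-9+DEX 3 was left out, with limma adjusted p from 0.0765 to 0.137, and its change turned to 0.60 (0.00624) with the trends removed. SRSF4 (-0.16, SE 0.14) and SRSF7 (-0.08, SE 0.13) did not pass, with limma adjusted p at 0.319 and 0.581, and their groups overlapped. With the trends removed SRSF4 was at 0.65 (limma adjusted p 0.00493) and SRSF7 at 0.80 (0.00711).

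**Figure D3:**
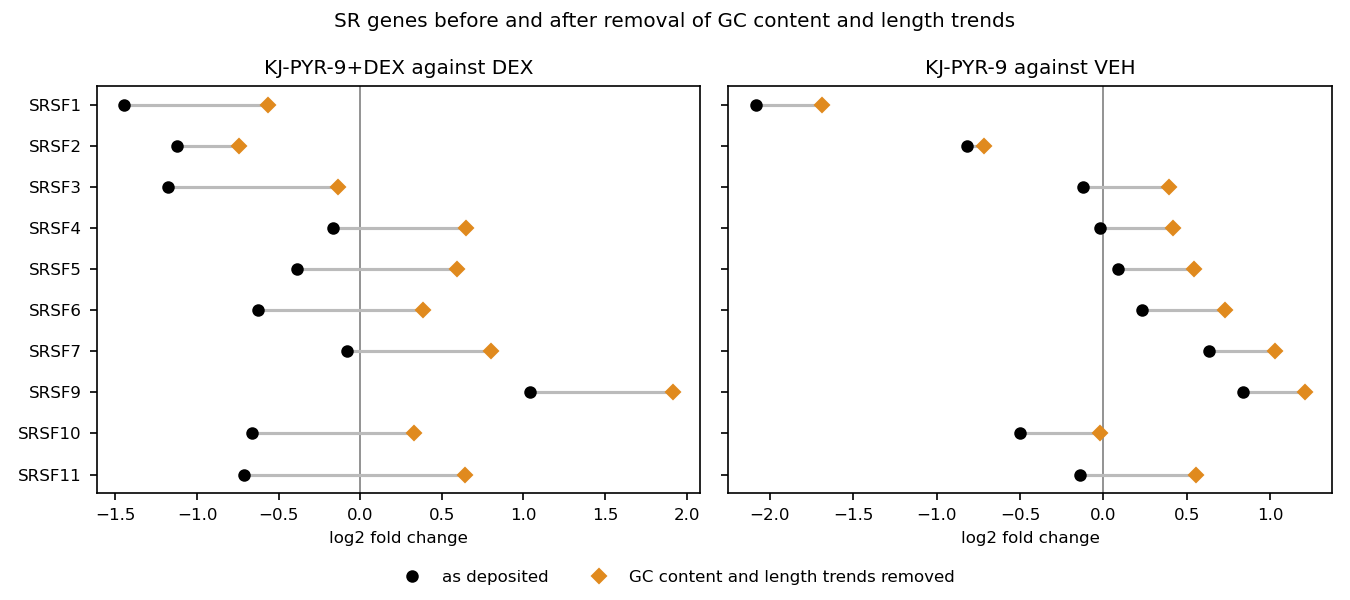
Log2 fold change (horizontal axis) of each SR gene (vertical axis) as deposited (circles) and after removal of each library's trends on GC content and length (diamonds). In KJ-PYR-9+DEX against DEX, SRSF1 moves from -1.45 to -0.57 and SRSF11 from -0.71 to 0.64, while in KJ-PYR-9 against VEH SRSF1 moves from -2.09 to -1.69.

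The class medians by GC content spanned a wider range here than under KJ-PYR-9 alone. Median log2 changes of the GC classes in KJ-PYR-9+DEX against DEX were -1.11, -0.39, 0.38 and 0.93 from lowest to highest GC. Within the lowest class, which holds 8 of the SR genes, all but SRSF1 and SRSF3 had a change above that median. Whether the trend comes from the cells or from the libraries was not tested.

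DEX alone went with modestly higher levels of part of the family, a description since it shares the VEH libraries with the choice of the genes. SRSF3, SRSF6, SRSF7 and SRSF11 were above vehicle in every library, with log2 differences of 0.55, 0.47, 0.24 and 0.36. SRSF9 was below it in every library, at 494, 763 and 721 against 778, 957 and 946 (-0.46). Without DEX 1, the library with the most reads on unnamed features, that difference was -0.26. These are 4 genes above and 1 below, beside 23.6% and 20.1% of all genes. With the GC and length trends removed, 0 were above and 4 below, beside 15.3% and 16.5% of all genes, with SRSF9 at -0.85. Over the 12 libraries of this experiment SRSF1 and SRSF2 had a Pearson r of 0.925 on the log2 scale, SRSF1 and SRSF10 0.867, and SRSF1 and SRSF9 -0.864. These libraries share 4 treatments and the GC trend, so the values describe the set. Library 3 held the lowest SRSF1, SRSF2, SRSF3 and SRSF11 value of its group in all 4 groups.

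The genes whose values followed SRSF1 most closely over the 12 inhibitor libraries, in a set of 11063 genes whose mean was 50 or more, were OTUD6B-AS1 (Pearson r 0.993), FGD5-AS1 (0.991), TSN (0.99), HAUS3 (0.989) and EFCAB14 (0.989). The first 2 are antisense noncoding transcripts, whose reads cannot be told from those of a partner gene where the counting ignored strand.

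After MYC siRNA, no SR gene passed the test. By limma's adjusted p, 0 of 10 were called, as against 16.1% of all 14788 genes, and 3 of 10 had an unadjusted p under 0.05, as against 36.26% of all genes. On recovered reads, edgeR called 1 (SRSF1, -0.51, adjusted p 0.0372) and DESeq2 called 3 (SRSF1, SRSF10 and SRSF11), all lower, beside 8.24% of all genes called lower by edgeR and 11.9% by DESeq2. Of the members, 5 (SRSF1, SRSF6, SRSF7, SRSF10 and SRSF11) were below every control library, beside 17.1% of all genes, and 0 were above every one, beside 26.6%. The median log2 change was -0.21 over the SR genes and 0.05 over all genes.

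SRSF1 was at 2408, 2545 and 2996 in siCtl and at 2019, 2211 and 1642 in siMYC. All 3 knockdown libraries were lower, with a fitted fold of 0.736, a log2 change of -0.44 (SE 0.16) with limma's adjusted p at 0.101. SRSF11 was at 4594, 4791 and 4385 in siCtl and at 3847, 2082 and 2880 in siMYC. The knockdown libraries of SRSF11 spread widely, and the change of -0.69 (SE 0.22, limma adjusted p 0.0794) passed without siMYC 1 (-0.91, 0.0196). SRSF10, at 6277, 6261 and 6561 against 5845, 4348 and 4525, gave -0.39 (SE 0.15, limma adjusted p 0.111) and, without siMYC 1, -0.52 (0.0244). The remaining members had log2 changes from -0.24 (SRSF2) to 0.05 (SRSF5), with limma adjusted p from 0.196 (SRSF7) to 0.98 (SRSF9). SRSF9 was at 1472, 1779 and 1380 in siMYC and 1442, 1464 and 1689 in siCtl, so the groups overlapped. Medians of the GC classes in this comparison were -0.26, 0.01, 0.16 and 0.24, and with the trends removed SRSF11 stood at -0.40 (limma adjusted p 0.0497) and SRSF1 at -0.36 (0.173).

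**Figure D4:**
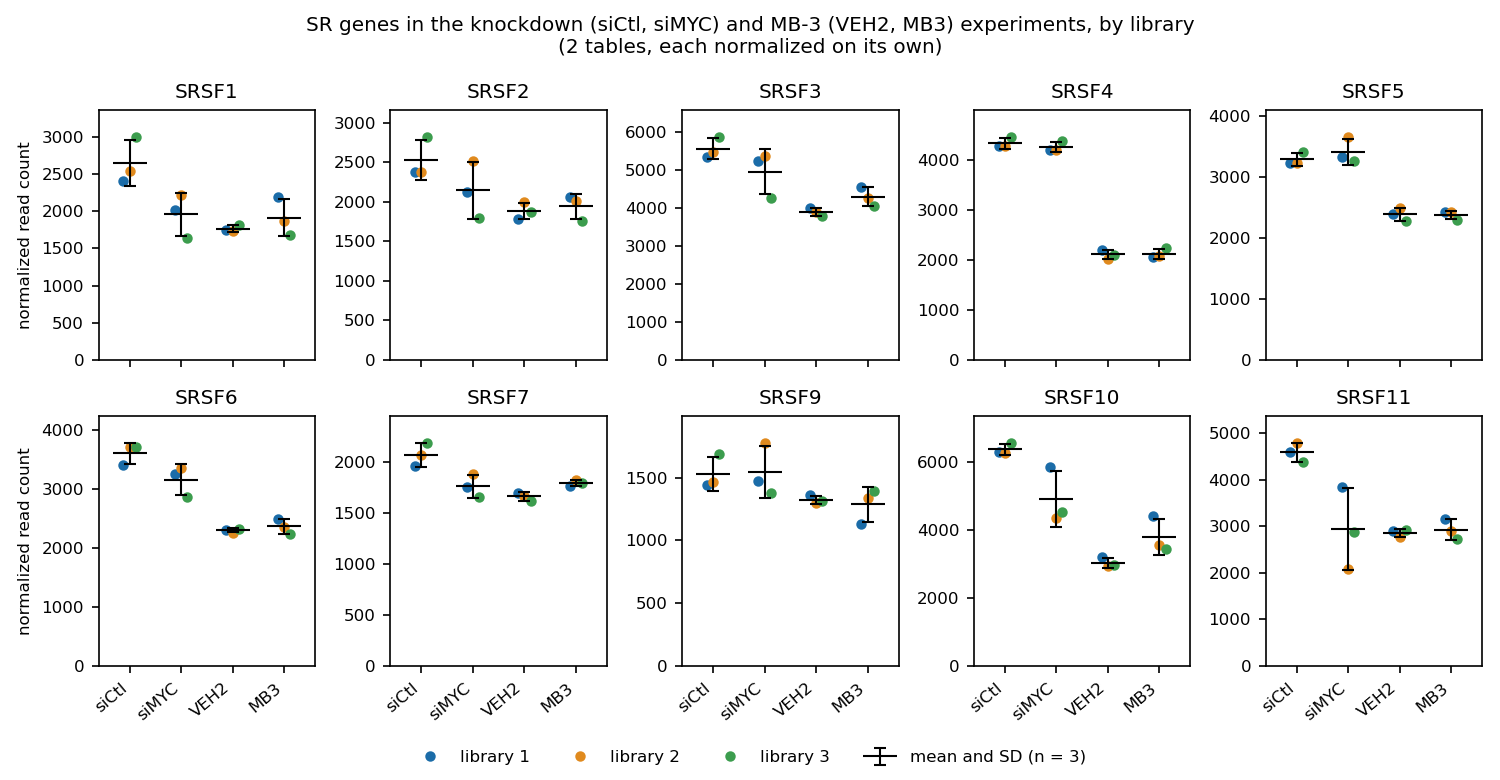
Normalized read counts (vertical axes, from 0) of the 10 SR genes in siCtl, siMYC, VEH2 and MB3 (horizontal axes), with libraries as coloured points and the mean and SD (n = 3) as bars. The 2 experiments were normalized separately, so siCtl is to be read against siMYC and VEH2 against MB3. SRSF11 ranges from 2082 to 3847 in siMYC, below all siCtl libraries.

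After MB-3, no SR gene passed the test either. By limma 0 of 10 were called, as against 0.0597% of the 10048 genes, 0.0299% lower and 0.0299% higher (6 genes, or 14 with the replicate number as a block), and 1 had an unadjusted p under 0.05, as against 13.7% of all genes. SRSF3, SRSF7 and SRSF10 were above every VEH2 library, beside 11.5% of all genes, and 0 were below every one, beside 11.6%. SRSF10 was at 3185, 2932 and 2960 in VEH2 and at 4397, 3552 and 3435 in MB3, a log2 change of 0.32 (SE 0.11, limma adjusted p 0.308). SRSF1 was at 1742, 1733 and 1817 in VEH2 and at 2184, 1874 and 1683 in MB3, with overlap and a log2 change of 0.11 (SE 0.10, limma adjusted p 0.625). SRSF9, the gene that rose with KJ-PYR-9+DEX, was at 1359, 1299 and 1318 in VEH2 and 1131, 1341 and 1391 in MB3 (-0.05, SE 0.09, limma adjusted p 0.833). All 10 changes lay between -0.05 and 0.32, with a median of 0.04 beside 0.01 over all genes. Medians of the GC classes were 0.09, 0.06, -0.01 and -0.16 from lowest to highest GC. With the GC and length trends removed, SRSF10 stood at 0.24 (limma adjusted p 0.38) and the SR median at -0.02, beside 0.01 over all genes.

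**Figure D5:**
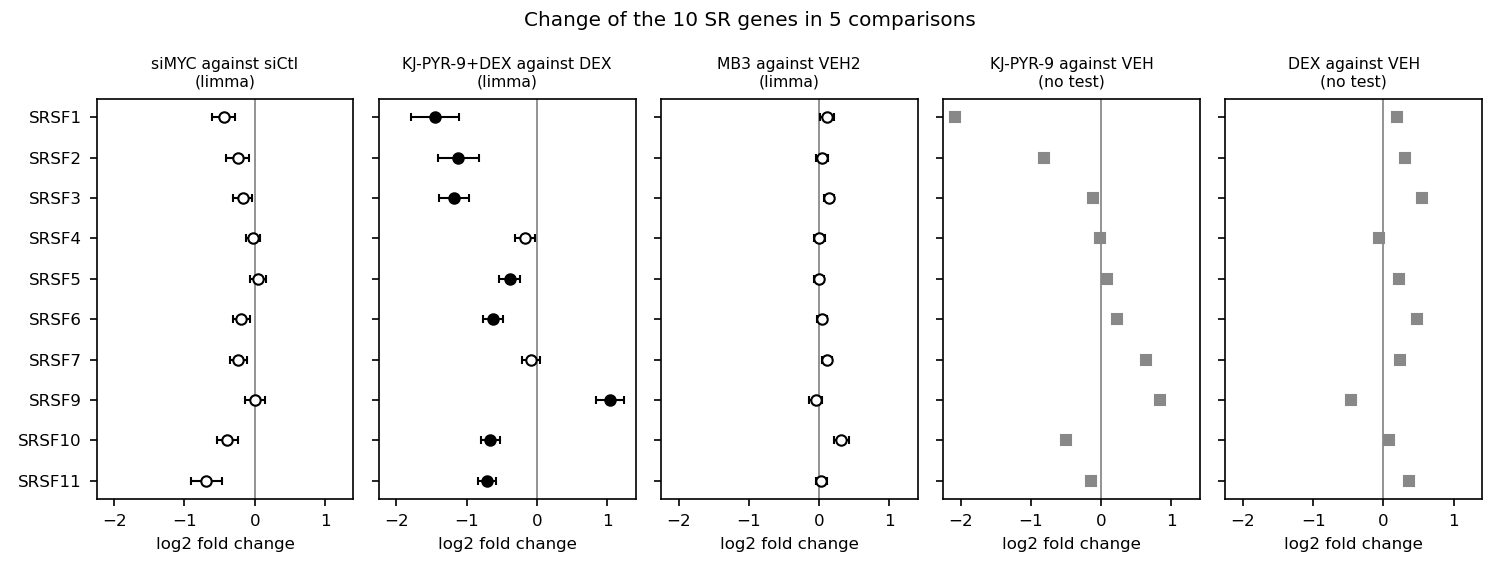
Log2 fold change (horizontal axes) of the 10 SR genes (vertical axis) in 5 comparisons. Circles with standard errors come from limma, filled where the adjusted p was under 0.05, and grey squares are differences with no test. Filled circles appear only for KJ-PYR-9+DEX against DEX, with 7 to the left of 0 and SRSF9 to the right.

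Other parts of the splicing machinery were read from 5 lists written with general knowledge of splicing. Their counts in KJ-PYR-9+DEX against DEX are to be read beside the 35.1% of all genes called lower and 33.6% called higher as deposited, and the 15.3% and 17.0% with the trends removed. Of 9 kinases and import factors of SR proteins, 5 fell and 2 rose by limma, with a median log2 change of -0.48 beside 0.00 over all genes. CLK1, a nuclear SR kinase, went from 522 to 155 (log2 change -1.74, SE 0.14, adjusted p 2.25e-05), and PRPF4B, a kinase of the spliceosome, from 1123 to 519 (-1.14, SE 0.19, adjusted p 0.000576). With the GC and length trends removed, CLK1 was at -0.24 and PRPF4B at 0.07, neither passing, and the list had 1 lower and 2 higher. Against 237 in VEH, CLK1 was at 522 in DEX and 307 in KJ-PYR-9 alone, both without overlap, a description with no test.

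Of 21 other RS-domain and SR-related factors, 11 fell and 4 rose (median -0.44), or 5 and 6 with the trends removed, against shares over all genes of 35.1% and 33.6%, or 15.3% and 17.0%. BCLAF1, an RS-domain protein of mRNA processing, was at 650 against 2408 (limma log2 change -1.93, adjusted p 0.000656) and kept a call at -0.63 (0.0305) with the trends removed. ZRANB2, a zinc finger splicing factor, was at -1.61 (limma adjusted p 0.000428) and turned to 0.31 (0.0185). SRSF8 and SRSF12, SR genes outside the set, had lower values than any of the 10, at 26.9 and 61.2 in DEX. SRSF12 fell to 40.1 in KJ-PYR-9+DEX (log2 change -0.59, limma adjusted p 0.031, no overlap), and SRSF8 did not pass (-0.37, 0.195).

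Of 27 hnRNP and antagonist factors, which often oppose SR proteins at exons, 11 fell and 5 rose (median -0.23), or 1 and 11 with the trends removed. The deposited count of lower genes is close to the 35.1% over all genes. PTBP2, the neuronal polypyrimidine tract binding protein, was at -1.77 (limma adjusted p 0.000266) and PCBP1, a poly(C) binding protein, at 1.43 (0.000586), and both kept their direction and call with the trends removed (-0.33 and 0.94). Of 31 core spliceosome genes, 7 fell and 14 rose (median 0.28), beside 35.1% and 33.6% of all genes, or 2 and 4 with the trends removed, beside 15.3% and 17.0%. SNRPB2, a U2 protein, was at -1.42 (limma adjusted p 0.000253) and SF3B5, an SF3b subunit, at 1.17 (0.000547), and with the trends removed they were at -0.07 (0.583) and 0.53 (0.00802).

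Nonsense-mediated decay bears on SR messages through their poison exons. All 10 SR genes have an annotated transcript of the decay class in GENCODE, beside 40.78% of 14288 protein-coding genes in the 3 tables, and 8 have a retained intron transcript, beside 55.13%. The deposited values are per gene, so these isoforms were not measured apart. Of 14 genes of the decay pathway and the exon junction complex, 4 fell and 5 rose in KJ-PYR-9+DEX against DEX (median -0.07), or 3 and 5 with the trends removed. The deposited counts are close to the 35.1% and 33.6% over all genes, and those with the trends removed stand beside 15.3% and 17.0%. UPF1, the helicase of the pathway, was at 2239 against 929 (limma log2 change 1.28, adjusted p 0.00018) and UPF2, its partner, at 391 against 875 (-1.21, adjusted p 0.00114). With the trends removed UPF1 was at 0.29 (limma adjusted p 0.0667, or 0.0457 with the block) and UPF2 at -0.30 (0.153).

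In the knockdown, 1 kinase of 9, 1 RS-related factor of 21 and 1 decay gene of 14 fell and none rose by limma, with 0 of 27 hnRNP genes and 0 of 31 core genes called, beside 4.78% of all genes called lower and 11.4% higher. PRPF4B went from 2746 to 1586 (-0.83, adjusted p 0.0414), PNN, a speckle protein, from 3052 to 1854 (-0.73, adjusted p 0.0276) and UPF3B, a decay factor, from 1084 to 717 (-0.61, adjusted p 0.0475). Each of these 3 calls was lost when any library but siMYC 1 was left out, with limma adjusted p from 0.0509 to 0.147. In MB3, 0 genes of the 5 lists were called.

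Some SR genes share exon sequence with neighbours. On GRCh38, MFSD11 on the opposite strand overlaps SRSF2, and GATC on the opposite strand overlaps 46.2% of the exon bases of SRSF9. Summed over neighbouring genes, overlaps came to 39.9% of the exon bases of SRSF2 and, with 2 noncoding genes, 69.8% of those of SRSF1. In these sums a base in several neighbours counts once for each. The strand setting of the counting was not given in the sources used here, so reads there cannot be assigned with certainty. After the combination MFSD11 and GATC stood at 107 and 90.0, below the 540 and 1352 of SRSF2 and SRSF9, and their log2 changes relative to DEX were -0.46 and -0.65 (limma adjusted p 0.032 and 0.0279). In the same comparison SRSF2 was at -1.12 and SRSF9 at 1.04. The MFSD11 groups did not overlap, and the GATC groups did. The part of reads from these neighbours in the SRSF2 and SRSF9 values was not tested. RefSeq lists 5 pseudogenes of SRSF3, 2 each of SRSF6 and SRSF10, and 1 each of SRSF1, SRSF2, SRSF9 and SRSF11, whose reads the counting may have split.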

How the data were processed

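RNA of 24 BT549 libraries was depleted of ribosomal RNA and sequenced as paired ends, per the labels' protocols. The deposited signal of each library is a column of read counts per gene divided by a library factor, which the submitters' processing notes credit to featureCounts and DESeq2 on GRCh38. Neither aligner nor annotation is named, and versions are not given in the sources used here. Values of the knockdown and inhibitor tables were whole multiples of 1 read within 0.0001 in 100% of cases. In the MB-3 table the value of 1 read was not seen directly, so no count test was run there. The planned test was limma, with edgeR planned only if the values were raw whole counts, which they were not.

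Genes with a mean of at least 10 entered a limma fit (version 3.58.1, R 4.3.3) of log2(value + 1). Tests were two-sided, and p-values were adjusted over every gene tested by the Benjamini-Hochberg method. The inhibitor experiment was 1 fit of 12 libraries. Fold changes are on this scale, with SE. edgeR 4.0.16 and DESeq2 1.42.0 on recovered reads, other scalings, filters and pseudocounts, and each library left out were alternatives. GC content and length came from GENCODE transcripts for 94.14% of 18154 symbols and all 10 SR genes. Transcript and promoter annotation came from GENCODE and RefSeq on GRCh38.

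Same-numbered libraries had residual correlations of 0.13 to 0.524 in the inhibitor experiment (18 pairs) and 0.208 to 0.389 in the MB-3 experiment (3 pairs). Every such pair exceeded 0.1, the minimum set for pairing. Pairs of different numbers ran from -0.468 to 0.236 and from -0.329 to 0.194. In the inhibitor experiment these ranges overlapped, so pairing by number is not certain there. Fits were run on simulated independent counts without GC or length trends and without replicate pairing, so the simulation does not bear on those features. The SR genes and the lists were chosen with earlier results of these data known. The text names all SR genes, MYC, KAT2A, the called genes with the largest change of each list, and the 5 genes most correlated with SRSF1. Genes named for overlapping exons, and SRSF8 and SRSF12, were added after their values were seen.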

Additional observations from a re-analysis of the deposited data

How the results depend on the processing

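For KJ-PYR-9+DEX against DEX, 210 values of the SR genes were computed over 21 alternatives. Of these, 178 kept their side of the threshold without reversing, 14 lost the call and 18 reversed. A value counted as reversed where its sign changed and the main or the alternative fit passed. Any sign change with neither fit passing stayed among the 178. All 18 reversals came with removal of the GC content and length trends, and the cause was not tested. The trends alone removed, 4299 genes were called and 1 SR gene lower and 6 higher, beside 15.3% and 17% of all genes. The changes were SRSF4 0.65, SRSF5 0.60, SRSF6 0.38, SRSF7 0.80, SRSF10 0.33, SRSF11 0.64, KAT2A -0.26, PRPF4B 0.068 and ZRANB2 0.31. With the replicate block added to the removal these log2 changes were the same, 0.65, 0.60, 0.38, 0.80, 0.33, 0.64, -0.26, 0.068 and 0.31. In that fit 5684 genes were called and 2 SR genes lower and 7 higher, beside 21.3% and 21.5% of all genes. The replicate block alone changed no SR call (10257 genes called). With DEX 1 and KJ-PYR-9+DEX 3 also left out, an alternative chosen after seeing the data, 2397 genes were called, 8.06% of all genes lower and 10% higher. There 0 SR genes were lower and 4 higher, with SRSF4 0.49, SRSF5 0.42, SRSF6 0.27, SRSF7 0.53, SRSF10 0.16, SRSF11 0.43, PRPF4B 0.045 and ZRANB2 0.29. edgeR called 9126 genes and DESeq2 9204.

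For siMYC against siCtl, 2386 genes were called. The replicate block gave 470, the block with the trends removed 493, DESeq2 3782, edgeR 2922, and leaving out a library 432 to 3983. The numbers did not pair the libraries there (residual correlation -0.346 to -0.02), and the call of no SR gene was the same with the block. SR genes called lower were 1 with the trends removed, 1 with trended and robust variance, 1 with edgeR and 3 with DESeq2, and 0 to 2 when a library was left out. In the same order, the shares of all genes called lower were 10.4%, 7.19%, 8.24% and 11.9%, and 0.331% to 12.5%. The split of calls was 707 lower and 1679 higher as deposited, 944 and 1374 with TMM, 1090 and 1369 with quantile scaling, and 1487 and 1299 with the trends removed. For MB3, 6 genes were called, and 11 with the trends removed, 11 with trended and robust variance, 14 with the replicate block, 3 with block and removal, and 1 to 3 with a library left out, never an SR gene. Count tests were not run for MB3.

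In KJ-PYR-9 against VEH, SR genes below all vehicle libraries numbered 6 with quantile scaling, beside 33.3% of all genes. With a library left out they numbered 3 to 5 (5 without VEH 3), beside 31.2% to 34% of all genes (34% without VEH 3). With the trends removed 7 SR genes were above, beside 24.5% of all genes. In DEX against VEH, the SR genes above were 2 with quantile scaling, beside 20.2% of all genes. With a library left out they were 4 to 8 (8 without DEX 3), beside 25.4% to 35.9% of all genes (35.9% without DEX 3). With the trends removed 0 were above, beside 15.3%, and 4 below, beside 16.5%. Leaving out DEX 1 as well, chosen after seeing the data, gave 0 above and 4 below, beside 17.7% and 20.2% of all genes.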
